A study of Mus musculus with 32 samples.

Results

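A set of 35 ribosome biogenesis genes was followed in sorted mouse marrow hematopoietic stem and progenitor cells. The genes were taken by name from a list of nucleolar and ribosome assembly factors. That list was chosen with earlier results of these data known, so counts of called members beside all genes are descriptions. All 35 were found by symbol among the 45706 gene identifiers of the expression tables. All 35 also passed the filter on low counts, which left 15186 genes for testing. They comprise 3 genes of RNA polymerase I transcription, 7 of the small nucleolar ribonucleoproteins (snoRNPs), 12 of small-subunit processing, 9 of large-subunit assembly and 4 abundant nucleolar proteins.

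The study modelled remission from acute myeloid leukemia by transplantation. Lethally irradiated C57BL/6J recipients (CD45.2) received 200000 marrow cells from CD45.1 mice together with 800000 wild-type marrow cells (CD45.1+/2+), and only the wild-type cells were sorted (Lin- cKit+ Sca1+). In experienced mice the CD45.1 marrow was homozygous for a doxycycline-inducible human MLL-AF9 and for rtTA, the doxycycline-responsive activator, and in naive mice it carried homozygous rtTA alone. From 6 to 8 weeks after transplantation, leukemia was induced with doxycycline for 5 weeks and then left to regress for 4 weeks after withdrawal. The sources used here do not say whether naive mice received doxycycline. Mice of both kinds were then injected with PBS or with lipopolysaccharide (LPS), a bacterial cell wall component, and killed 24 hours later. No source used here gives the LPS dose. RNA-seq gave 1 table for each of 4 biological replicates in the 4 groups (naive PBS, naive LPS, experienced PBS and experienced LPS). Nothing in the labels states that replicates are separate mice, so the p-values refer to the spread among these biological replicates as labelled.

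Ribosomes are assembled mainly in the nucleolus. RNA polymerase I transcribes a long precursor rRNA, snoRNPs guide its chemical modification, and a large set of assembly factors folds and cleaves it and adds ribosomal proteins to form the small and the large subunit. In hematopoietic stem cells protein synthesis is kept low at rest, and ribosome assembly is among the processes raised when such cells grow and divide. The factors leave before the ribosome is finished and are distinct from its own proteins.

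Libraries held 7718836 to 22264649 counts, and the mitochondrial share ranged from 1.91% to 7.3%. Experienced LPS replicate 4 was the shallowest, had the highest mitochondrial share, and correlated least with its own group across genes (mean r = 0.915). Naive LPS replicate 2 (8538309 counts, r = 0.936) and experienced PBS replicates 3 and 4 (r = 0.95 and 0.947) came next, and results are given with and without these 4 libraries. All 12 stem and progenitor markers, among them Kit and Ly6a, were detected in each group. Their summed level was 2720 to 3400 CPM (counts scaled to a common library size) in naive PBS, 1410 to 1680 in naive LPS, 2210 to 2920 in experienced PBS and 1470 to 1640 in experienced LPS. Mature neutrophil and macrophage markers summed to 19.1 to 54.5 CPM, with Camp, Ly6g and Retnlg at 0 in naive LPS and Ly6g at 0 in experienced PBS.

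LPS raised the ribosome assembly genes in both kinds of mice. In naive mice 28 of the 35 were higher and 0 lower at an edgeR adjusted p under 0.05, while 9.81% of all genes tested were called higher and 11.9% lower. In experienced mice 25 of 35 were higher and 0 lower, against 4.52% and 8.26% of all genes. With limma on log2(TPM + 1) the numbers called were 11 and 3, all of them also called by edgeR. All 35 had a log2 change above 0 in each comparison. The median log2 change was 0.70 in naive mice, or 1.62-fold, with a range of 0.42 to 1.43, and 0.67 in experienced mice, or 1.60-fold, with a range of 0.22 to 1.02. The median over all genes tested was 0.02 and -0.02. The 4 LPS libraries lay wholly above the 4 PBS libraries for 28 members in naive mice (12.5% of all genes) and for 23 in experienced mice (6.45% of all genes).

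In both kinds of mice 19 members were called higher, against 2.94% of all genes, with 9 more in naive mice alone and 6 in experienced mice alone. Gar1, a core protein of the H/ACA snoRNPs, was called in neither, with log2 changes of 0.52 ± 0.20 (SE, edgeR adjusted p = 0.0741) and 0.60 ± 0.20 (adjusted p = 0.0596). Being called on one side only is not a difference between the mice, and that difference was tested separately for every member, as given below. Leaving out 1 library at a time moved the number called from 22 to 35 in naive mice and from 9 to 31 in experienced mice. The lowest count in experienced mice, 9, came without experienced PBS replicate 1. Counts of 13 or 14 came without experienced LPS replicates 1, 2 or 3 or without experienced PBS replicate 2. Calls that held whichever library was left out numbered 21 of 28 in naive mice and 9 of 25 in experienced mice, namely Heatr1, Mybbp1a, Nolc1, Nop16, Pes1, Rrp12, Rrs1, Utp20 and Wdr75. Without the 4 atypical libraries 33 members were called in naive mice and all 35 in experienced mice, with median log2 changes of 0.64 and 0.90. These libraries were picked for low correlation with their own group, which narrows the spread by construction, and experienced PBS kept only replicates 1 and 2. Among those left out, experienced PBS replicate 4 was the highest of its group for 27 members and experienced LPS replicate 4 the lowest for 23. The larger counts are therefore not independent support.

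**Figure D1:**
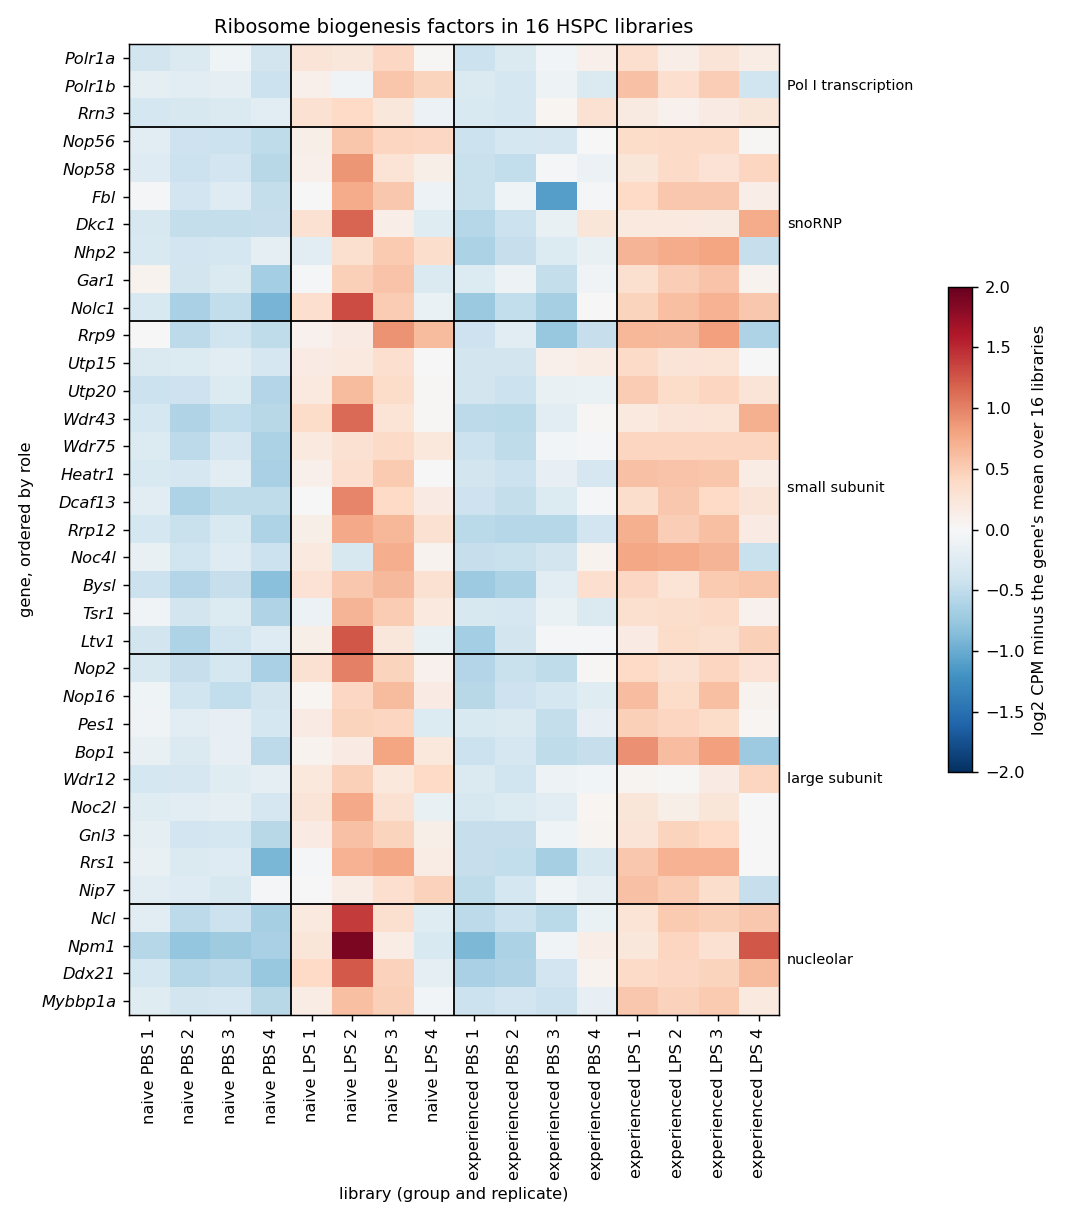
Heat map of the 35 genes (vertical axis, by role) in the 16 libraries (horizontal axis, by group and replicate). Colour gives log2 CPM minus the gene's mean over the 16 libraries, on a scale from -2 to 2. The LPS columns are mostly red and the PBS columns mostly blue, with the strongest red for Npm1 in naive LPS replicate 2 and several blue cells in experienced LPS replicate 4.

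**Figure D2:**
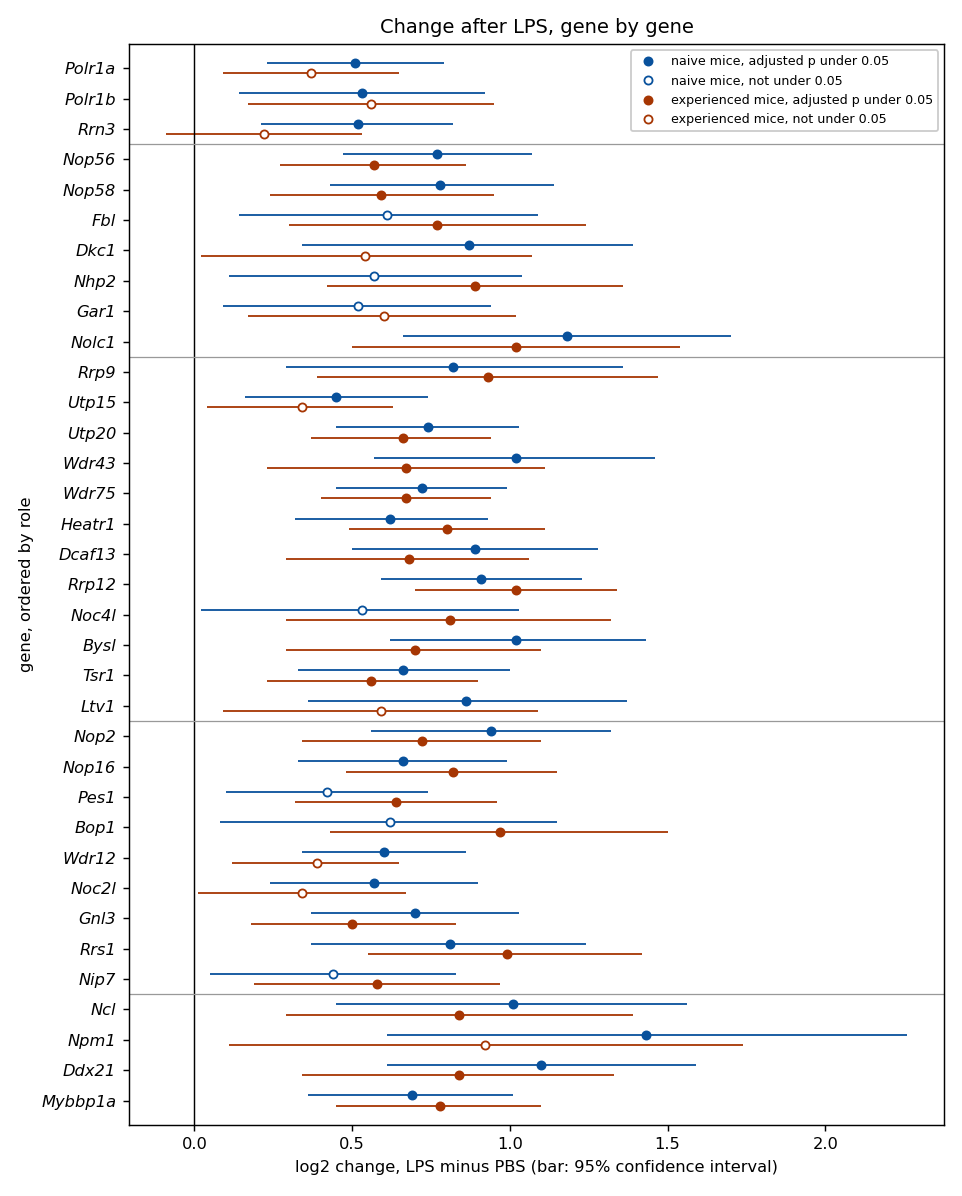
Log2 change after LPS (horizontal axis) for each gene (vertical axis, by role), in naive mice (blue) and experienced mice (brown). Points are edgeR estimates, bars their 95% confidence intervals, and filled points have an adjusted p under 0.05. All points lie to the right of 0, and only the interval of Rrn3 in experienced mice reaches below 0.

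Promoter sequence was examined for shared motifs, since the members moved together. RefSeq windows from 250 bases before to 50 bases after the gene start (GRCm38.p6) were on hand for 29 members, and for Bop1, Dcaf13, Fbl, Npm1, Rrp12 and Rrs1 there was no entry. CACGTG, the palindromic E-box core that Myc and Max bind, was present in 8 of the 29 (27.6%), compared with 8.09% of all 27025 RefSeq genes and 11.8% of the 10296 tested genes with a window. CCGGAAGT, an ETS-type motif searched on both strands, was in 8 of 29 (27.6%), compared with 4.31% and 9.15%. TATAAA, the TATA box core searched on both strands, was in 2 of 29 (6.9%), compared with 15.7% and 8.56%. None of the 3 motifs contains another. Within the members CACGTG was in 0 of 6 snoRNP and 4 of 10 small-subunit promoters. Among the other assembly genes CACGTG was in 21.6% of the 37 small-subunit, 19.0% of the 42 large-subunit and 12.5% of the 16 polymerase I promoters. It was in 9.09% of the 11 exosome, 0 of 8 other snoRNP and 7.14% of the 14 mitochondrial assembly promoters, and in 10.3% of the 58 promoters of cytosolic ribosomal protein genes. CCGGAAGT was in 29.7% of the same small-subunit, 28.6% of the large-subunit and 37.5% of the polymerase I promoters. Its share was 0.0% for the exosome, 12.5% for other snoRNP, 21.4% for mitochondrial assembly and 19.0% for ribosomal protein promoters. Sites are printed for CACGTG alone. The 9 CACGTG sites in the 8 member promoters follow as the exact stretches counted, 30 bases each, 5′ to 3′ on the gene's strand, with the motif in capitals.
Nop2, chr6:125131811-125131840, plus strand: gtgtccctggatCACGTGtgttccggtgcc
Ltv1, chr10:13193092-13193121, minus strand: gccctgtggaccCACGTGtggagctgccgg
Utp20, chr10:88826765-88826794, minus strand: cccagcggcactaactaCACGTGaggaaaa
Pes1, chr11:3963965-3963994, plus strand: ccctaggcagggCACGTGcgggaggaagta
Mybbp1a, chr11:72441347-72441376, plus strand: aagtgactgtcttctgagccCACGTGtttg
Tsr1, chr11:74898092-74898121, plus strand: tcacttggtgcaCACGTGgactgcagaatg
Rrn3 distal site, chr16:13780472-13780501, plus strand: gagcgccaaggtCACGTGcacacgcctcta
Rrn3 proximal site, chr16:13780639-13780668, plus strand: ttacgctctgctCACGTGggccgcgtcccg
Wdr43, chr17:71616220-71616249, plus strand: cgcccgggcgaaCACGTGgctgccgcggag

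Rrn3 was the only one of these 29 with a pair of sites, which began 215 and 48 bases before the gene start. The site of Nop2 began 60 bases before the start, and those of the other 6 genes at positions 3 to 41 after it. The 8 genes with CACGTG had a median log2 change of 0.71 in naive and 0.65 in experienced mice, and the 21 without it 0.66 and 0.60. A match of letters is a description of the window and not evidence of a bound factor.

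On a scale corrected for gene length (TPM, transcripts relative to all transcripts of a library), the members were moderately to highly expressed before LPS. Their median in naive PBS was 48.3 TPM, compared with 13.1 for all genes tested. Npm1, which encodes the nucleolar chaperone nucleophosmin, had the highest level at 660 ± 88.4 TPM (SD, n = 4). It was followed by Ncl, encoding nucleolin, at 355 ± 102, and by Nop56 at 302 ± 60.8, then by Fbl at 164 ± 31.5 and Nop58 at 157 ± 29.0. The lowest were Utp20 at 14.2 ± 3.35 and Bysl at 10.8 ± 2.55. Along this order, neighbours were separated beyond the spread of their 4 naive PBS libraries in only 2 of 34 pairs, between Npm1 and Ncl and between Nop56 and Fbl.

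The 3 genes of RNA polymerase I transcription rose in naive mice, with a median log2 change of 0.52. None of the 3 passed the test in experienced mice, where the median was 0.37. Over the 26 alternatives, Polr1a was called in experienced mice under 4, Polr1b under 6 and Rrn3 under 1. Without the 4 atypical libraries, where each of them was called, the experienced median was 0.62. Polr1a, the largest subunit of the enzyme, had 122, 130, 149 and 122 CPM in naive PBS and 189, 184, 210 and 161 CPM in naive LPS. In experienced mice it had 117, 130, 152 and 170 CPM after PBS and 200, 173, 189 and 175 after LPS. All LPS libraries exceeded all PBS libraries within each kind of mouse, by a narrow margin in experienced mice. This gave a log2 change of 0.51 ± 0.13 (SE, edgeR adjusted p = 0.0137) in naive and 0.37 ± 0.13 (adjusted p = 0.0784) in experienced mice. Polr1b, the second largest subunit, had log2 changes of 0.53 (edgeR adjusted p = 0.0491) in naive and 0.56 (adjusted p = 0.0574) in experienced mice. In naive mice its call was lost without any 1 of 14 libraries, as the adjusted p lay at the threshold. Its experienced LPS replicate 4, at 88.1 CPM, lay below all experienced PBS libraries. Without that library the experienced change was 0.76 (adjusted p = 0.00271).

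Rrn3 encodes the factor that brings polymerase I to the rDNA promoter. It had 66.0, 68.1, 69.0 and 72.4 CPM in naive PBS and 104, 112, 99.4 and 78.3 CPM in naive LPS. In experienced mice the values were 68.4, 66.2, 87.2 and 105 after PBS and 95.8, 90.1, 94.9 and 99.9 after LPS. The naive groups were separate, while in experienced mice PBS replicate 4 was above all 4 LPS libraries. Rrn3 rose by 0.52 ± 0.15 on the log2 scale (edgeR adjusted p = 0.0199) in naive mice, a call lost without naive PBS replicate 2. Its log2 change in experienced mice was 0.22 ± 0.15 (adjusted p = 0.351), the smallest change of any member, and it became 0.39 (adjusted p = 0.0597) without experienced PBS replicate 4 and 0.50 (adjusted p = 0.00741) without the 4 atypical libraries.

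Among the 7 snoRNP genes, 4 rose in naive and 5 in experienced mice, with medians of 0.77 and 0.60. Without naive LPS replicate 2 the medians were 0.58 and 0.62. Nop56, a scaffold of the box C/D particles that methylate rRNA, had 321, 278, 276 and 262 CPM in naive PBS and 403, 543, 499 and 494 CPM in naive LPS. Experienced mice had 275, 290, 293 and 374 after PBS and 477, 485, 482 and 379 after LPS. The groups were separate in both, though experienced PBS replicate 4 and LPS replicate 4 nearly met. Nop56 rose by log2 changes of 0.77 ± 0.14 (edgeR adjusted p = 0.00145) and 0.57 ± 0.14 (adjusted p = 0.0149), the second lost without experienced PBS replicate 1 or 2. Its partner Nop58 rose by a log2 change of 0.78 in naive and 0.59 in experienced mice, and Nop58 lost the second call without experienced PBS replicate 1 or 2 or LPS replicate 1 or 2. Fbl, the methyltransferase of the same particles, passed only in experienced mice (0.77, adjusted p = 0.0328), with 0.61 and an adjusted p of 0.0601 in naive mice, and lost that call without experienced PBS replicate 1 or 3 or LPS replicate 1, 2 or 3.

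Nolc1, a chaperone that accompanies both kinds of snoRNP through the nucleolus, changed most in this class. It stood at 168, 133, 148 and 110 CPM in naive PBS and at 262, 516, 297 and 191 in naive LPS. Experienced mice gave 124, 148, 131 and 208 CPM after PBS and 283, 318, 336 and 303 after LPS. The groups did not overlap, and naive LPS replicate 2 was far above its group. Nolc1 rose by 1.18 ± 0.25 on the log2 scale (edgeR adjusted p = 0.00346), or 2.26-fold, in naive mice, and 1.02 ± 0.25 (adjusted p = 0.0122), or 2.03-fold, in experienced mice. Without naive LPS replicate 2 the naive change was 0.86 (adjusted p = 0.0069).

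The H/ACA particles turn selected uridines of rRNA into pseudouridine, and Dkc1 was called in naive mice and Nhp2 in experienced mice. Dkc1, the pseudouridine synthase, had 148, 132, 132 and 134 CPM in naive PBS and 227, 412, 201 and 156 CPM in naive LPS. Experienced mice had 124, 136, 166 and 217 CPM after PBS and 210, 210, 208 and 307 after LPS. Naive LPS replicate 2 and experienced LPS replicate 4 stood well above the rest, and experienced PBS replicate 4 overlapped the LPS range. For Dkc1 the log2 change was 0.87 ± 0.25 (edgeR adjusted p = 0.0216) in naive mice, becoming 0.53 (adjusted p = 0.0705) without naive LPS replicate 2. The call was also lost without naive PBS replicate 2 or 3. In experienced mice the change was 0.54 ± 0.25 (adjusted p = 0.164).

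Nhp2, a core RNA-binding protein of the same particles, had 60.6, 57.6, 58.4 and 66.2 CPM in naive PBS and 64.7, 93.9, 108 and 95.2 in naive LPS. Values in experienced mice were 48.3, 54.1, 62.0 and 67.3 after PBS and 120, 125, 129 and 54.4 after LPS. Groups overlapped in both kinds of mice, and 1 LPS library, replicate 4, was within the PBS range in experienced mice. For Nhp2 the log2 changes were 0.57 ± 0.22 (edgeR adjusted p = 0.0711) in naive and 0.89 ± 0.22 (adjusted p = 0.0148) in experienced mice. Without experienced LPS replicate 4 the latter was 1.13 (adjusted p = 0.000298), and the call was lost without experienced PBS replicate 1 or LPS replicate 3.

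Of the 12 small-subunit factors, 11 passed in naive and 10 in experienced mice, with medians of 0.78 and 0.68. Rrp12, which acts in the processing and export of pre-ribosomes, had the lowest adjusted p of all members in both comparisons. It had 59.1, 55.3, 60.8 and 49.0 CPM in naive PBS and 81.8, 127, 119 and 93.6 CPM in naive LPS. The experienced mice had 51.8, 50.7, 50.8 and 57.6 CPM after PBS and 123, 106, 114 and 84.3 after LPS. Every LPS library exceeded every PBS library. Rrp12 rose by a log2 change of 0.91 ± 0.15 (edgeR adjusted p = 0.000695) in naive and 1.02 ± 0.15 (adjusted p = 0.000474) in experienced mice.

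Wdr75, a component of the processome that binds the nascent precursor rRNA, had 61.6, 51.3, 58.5 and 47.6 CPM in naive PBS and 85.1, 91.9, 96.7 and 86.2 CPM in naive LPS. Experienced mice gave 54.8, 52.0, 71.0 and 72.8 after PBS and 100, 99.5, 99.5 and 99.4 after LPS. The experienced LPS libraries were almost equal, and again all LPS libraries were above all PBS libraries. Wdr75 rose by log2 changes of 0.72 ± 0.13 (edgeR adjusted p = 0.0012) and 0.67 ± 0.13 (adjusted p = 0.00294). Rrp12 and Wdr75 were the 2 members called in both kinds of mice under each of the 26 alternative settings.

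Heatr1, a large processome protein needed for early precursor transcription and cleavage, had 133, 130, 139 and 104 CPM in naive PBS and 175, 206, 234 and 164 in naive LPS. After PBS the experienced mice had 127, 121, 146 and 129 CPM, and after LPS 245, 242, 241 and 181. No PBS library reached an LPS library of the same mice. Heatr1 rose by log2 changes of 0.62 ± 0.15 (edgeR adjusted p = 0.00693) and 0.80 ± 0.15 (adjusted p = 0.00206). Utp15, from a subcomplex that links transcription to processing, changed less. Its values were 53.8, 54.6, 57.2 and 52.1 CPM in naive PBS, 73.6, 75.4, 83.0 and 65.9 in naive LPS, 51.0, 51.2, 70.4 and 73.3 in experienced PBS, and 86.0, 79.0, 79.4 and 65.4 in experienced LPS. The naive groups were separate and the experienced groups overlapped through LPS replicate 4. For Utp15 the log2 change was 0.45 ± 0.14 (edgeR adjusted p = 0.0283) in naive mice, a call lost when any of naive PBS replicates 1 to 4 or naive LPS replicate 3 was left out, and 0.34 ± 0.14 (adjusted p = 0.121) in experienced mice.

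Bysl, an assembly factor of the pre-40S particle, had 35.6, 32.1, 35.1 and 27.0 CPM in naive PBS and 59.0, 70.2, 75.1 and 59.6 CPM in naive LPS. In experienced mice the values were 29.0, 31.2, 41.3 and 60.6 after PBS and 64.4, 58.4, 69.0 and 70.4 after LPS. The naive groups were well apart, and experienced PBS replicate 4 reached into the LPS range. Bysl rose by 1.02 ± 0.19 on the log2 scale (edgeR adjusted p = 0.00174), or 2.03-fold, in naive mice and 0.70 ± 0.19 (adjusted p = 0.0249) in experienced mice, where the call was lost without PBS replicate 1 or 2 or LPS replicate 1 or 3. Bysl overlaps Ccnd3 on the opposite strand, which had a mean of 178 CPM against 51.1 for Bysl. No source used here gives the strand setting of the counting, so reads of the pair may be mixed.

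Noc4l and Ltv1, which act on nuclear and on late pre-40S particles, were each called in 1 kind of mouse. Noc4l had 55.9, 47.4, 51.8 and 46.4 CPM in naive PBS and 71.0, 50, 103 and 65.7 in naive LPS. Experienced libraries had 45.3, 45.6, 48.5 and 65.3 CPM after PBS and 107, 104, 100 and 45.8 after LPS. Experienced LPS replicate 4 lay within the PBS range and the other 3 far above it, and in naive mice LPS replicate 2 lay within the PBS range. For Noc4l the log2 changes were 0.53 ± 0.24 (edgeR adjusted p = 0.13) in naive and 0.81 ± 0.24 (adjusted p = 0.0379) in experienced mice, the latter rising to 1.05 (adjusted p = 0.00195) without that library. The call in experienced mice was lost without any 1 of 8 other libraries.

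For Ltv1 the values were 33.8, 28.4, 33.0 and 36.5 CPM in naive PBS and 47.4, 103, 51.0 and 39.2 in naive LPS. They were 27.1, 33.7, 42.4 and 42.4 CPM in experienced PBS and 48.7, 55.9, 54.3 and 60.4 in experienced LPS. LPS libraries were above PBS libraries in both, with naive LPS replicate 2 far above its group. The log2 changes were 0.86 ± 0.24 (edgeR adjusted p = 0.0175) and 0.59 ± 0.24 (adjusted p = 0.113). Without naive LPS replicate 2 the naive change was 0.50 (adjusted p = 0.0438), and the call was lost without naive PBS replicate 2. The remaining small-subunit members, Rrp9, Utp20, Wdr43, Dcaf13 and Tsr1, were called in both kinds of mice, with log2 changes of 0.66 to 1.02 in naive and 0.56 to 0.93 in experienced mice. Of these, only Utp20 kept both calls whichever single library was left out. Wdr43, Dcaf13 and Tsr1 kept the naive call but not the experienced call, and Rrp9 kept neither.

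Of the 9 large-subunit genes, 6 rose in naive and 7 in experienced mice, with medians of 0.62 and 0.64. Nop2, an rRNA cytosine methyltransferase, had 105, 95.7, 103 and 84.2 CPM in naive PBS and 163, 265, 179 and 139 CPM in naive LPS. In experienced mice the values were 87.7, 96.2, 92.4 and 133 after PBS and 174, 163, 176 and 161 after LPS. Both pairs of groups were separate. The log2 changes were 0.94 ± 0.18 (edgeR adjusted p = 0.00196) and 0.72 ± 0.18 (adjusted p = 0.0148), the second lost without experienced PBS replicate 1. Nop16, Gnl3 (nucleostemin) and Rrs1 were also called in both kinds of mice, and Rrs1, which helps bring the 5S particle into the large subunit, had log2 changes of 0.81 and 0.99. Nop16 and Rrs1 kept both calls whichever single library was left out. Gnl3 overlapped between the experienced groups (edgeR adjusted p = 0.0425). Its experienced call was lost without any 1 of experienced PBS replicates 1 to 3, experienced LPS replicates 1 to 3 or naive PBS replicates 2 and 3.

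Pes1, Bop1 and Wdr12 form the PeBoW complex, which is needed to mature the large-subunit rRNAs. Wdr12 had 109, 110, 117 and 123 CPM in naive PBS, 160, 194, 160 and 182 in naive LPS, 113, 105, 130 and 133 in experienced PBS, and 144, 141, 156 and 187 in experienced LPS. Its groups were separate in both kinds of mice. The log2 change was 0.60 ± 0.13 (edgeR adjusted p = 0.00341) in naive and 0.39 ± 0.12 (adjusted p = 0.0503) in experienced mice. Bop1 had 85.1, 77.2, 84.8 and 66.1 CPM in naive PBS and 100, 106, 163 and 110 CPM in naive LPS. The experienced libraries had 70.7, 75.2, 66.8 and 68.7 after PBS and 179, 145, 167 and 57.5 after LPS. The naive groups were separate, and in experienced mice LPS replicate 4 was below all PBS libraries while the other 3 were far above them. The log2 changes of Bop1 were 0.62 ± 0.25 (edgeR adjusted p = 0.0905) and 0.97 ± 0.25 (adjusted p = 0.0197), the second being 1.24 (adjusted p = 0.000184) without LPS replicate 4 and lost without experienced PBS replicate 1 or any 1 of LPS replicates 1 to 3. Pes1 passed in experienced mice alone, with log2 changes of 0.42 (edgeR adjusted p = 0.0587) and 0.64 (adjusted p = 0.0121).

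Noc2l, which acts on early large-subunit precursors, had 230, 231, 237 and 214 CPM in naive PBS and 324, 456, 334 and 245 in naive LPS. It had 217, 224, 235 and 277 CPM in experienced PBS and 319, 293, 320 and 271 in experienced LPS. The naive groups were separate, and the experienced groups overlapped through PBS replicate 4 and LPS replicate 4. The log2 changes were 0.57 ± 0.16 (edgeR adjusted p = 0.0169) and 0.34 ± 0.16 (adjusted p = 0.171). Nip7 passed in experienced mice at the threshold (0.58, edgeR adjusted p = 0.049) and had 0.44 (adjusted p = 0.0973) in naive mice. Its experienced call was lost under 19 of the 26 alternatives. Experienced LPS replicate 4, at 38.8 CPM, lay within the PBS range, and without it the change was 0.79 (adjusted p = 0.00139).

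The 4 abundant nucleolar proteins had a median log2 change of 1.05 in naive and 0.84 in experienced mice, and 4 and 3 of them passed. The naive median rested on naive LPS replicate 2 and was 0.67 without it, beside 0.68 for the small-subunit class. Npm1 had 628, 544, 569 and 591 CPM in naive PBS and 1100, 3420, 1030 and 754 CPM in naive LPS. In experienced mice it had 501, 601, 884 and 1020 CPM after PBS and 1090, 1260, 1150 and 2200 after LPS. The groups were separate, but naive LPS replicate 2 and experienced LPS replicate 4 held far more Npm1 mRNA than the rest of their groups. Npm1 rose by 1.43 ± 0.39 on the log2 scale (edgeR adjusted p = 0.0163), or 2.7-fold, in naive mice, and 0.74 (adjusted p = 0.0626) without naive LPS replicate 2. Its log2 change in experienced mice was 0.92 ± 0.39 (adjusted p = 0.126), and 0.66 (adjusted p = 0.233) without LPS replicate 4. Npm1 has near-identical copies in the genome among which RSEM divides reads, so its level is uncertain.

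Ddx21, an RNA helicase that works with polymerase I and snoRNPs, had 291, 251, 260 and 221 CPM in naive PBS and 490, 868, 510 and 326 in naive LPS. Experienced PBS libraries had 238, 246, 285 and 389 CPM and experienced LPS libraries 483, 495, 509 and 580. Groups were separate in both. The log2 changes were 1.10 ± 0.23 (edgeR adjusted p = 0.00387), or 2.14-fold, and 0.84 ± 0.23 (adjusted p = 0.0264), or 1.78-fold, with the second lost without experienced PBS replicate 1, 2 or 3 or LPS replicate 1 or 2. Mybbp1a, a nucleolar partner of Myb and of polymerase I, had 429, 393, 403 and 346 CPM in naive PBS, 564, 767, 707 and 488 in naive LPS, 378, 390, 376 and 455 in experienced PBS, and 736, 696, 726 and 581 in experienced LPS. No group overlapped its partner. The log2 changes were 0.69 ± 0.15 (edgeR adjusted p = 0.0051) and 0.78 ± 0.15 (adjusted p = 0.00344). Ncl rose with log2 changes of 1.01 (edgeR adjusted p = 0.0126), or 0.59 (adjusted p = 0.0248) without naive LPS replicate 2, and 0.84 (adjusted p = 0.0431), and its naive groups overlapped by 1 library. The experienced call of Ncl was lost without any 1 of experienced PBS replicates 1 to 3, experienced LPS replicates 1 to 3 or naive PBS replicates 2 and 3.

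**Figure D3:**
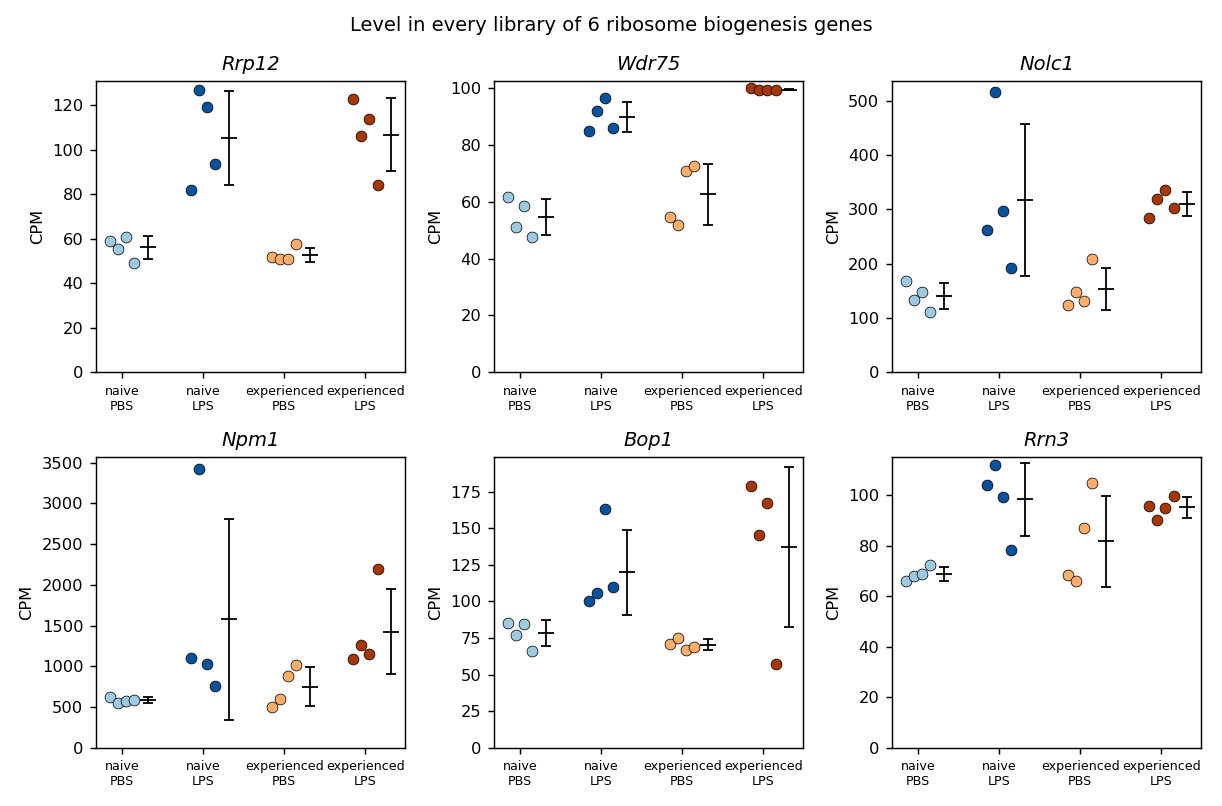
CPM (vertical axis, from 0) of 6 genes in every library of the 4 groups (horizontal axis). Points are libraries, and the bar beside each group is the mean with 1 SD (n = 4). Rrp12 and Wdr75 separate LPS from PBS in both kinds of mice, single libraries stand apart for Nolc1, Npm1 and Bop1, and experienced PBS replicate 4 reaches 105 CPM for Rrn3, above its LPS group.

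Prior leukemia exposure left no called difference in these genes. None of the 35 was called between experienced and naive mice after PBS, after LPS or on the mean of both, and the same contrasts called 0.0% of all genes tested at an edgeR adjusted p under 0.05. At an unadjusted p under 0.05 the numbers over all genes were 451, 491 and 294, and 0 of the members in each contrast. DESeq2 called 2 genes in each of the 3 contrasts and 0 members, and limma 0 members. Without the 4 atypical libraries 223 genes were called after LPS, again with 0 members. The median log2 difference of the members, experienced minus naive, was 0.07 after PBS, -0.01 after LPS and 0.04 on the mean. On the mean, single members lay between -0.06 and 0.17, and the 95% intervals ran from -0.46 at the lowest to 0.68 at the highest, both for Npm1. Wdr75 had the lowest unadjusted edgeR p on the mean (0.077), with a difference of 0.17 and a 95% interval of -0.02 to 0.36. Heatr1 followed with 0.13 (-0.08 to 0.35) and Utp15 with 0.12 (-0.09 to 0.32). The 4 experienced LPS libraries of Wdr75 were all above the 4 naive LPS libraries. Of all 15186 genes tested, 92 were wholly higher in this way and 154 wholly lower.

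The LPS response itself was compared between the 2 kinds of mice by an interaction term. Again 0 of 35 members and 0.0% of all genes were called, with 695 genes and 0 members at an unadjusted p under 0.05 and 1 gene, no member, called by DESeq2. The difference, experienced response minus naive response, was above 0 for 14 members and below 0 for 21, with a median of -0.12 and a range of -0.51 for Npm1 to 0.35 for Bop1. The 3 members with the lowest p were Rrn3 (-0.29, 95% interval -0.73 to 0.14), Bysl (-0.33, -0.90 to 0.24) and Wdr12 (-0.21, -0.58 to 0.16). Among members called in only 1 kind of mouse, the difference was -0.32 (95% interval -1.06 to 0.42) for Dkc1, -0.27 (-0.98 to 0.43) for Ltv1, -0.24 (-0.70 to 0.23) for Noc2l, 0.28 (-0.44 to 1.0) for Noc4l, 0.31 (-0.34 to 0.97) for Nhp2 and 0.35 (-0.40 to 1.10) for Bop1. Intervals this wide, with SEs of 0.18 to 0.54, do not show that the responses were equal. Without the 4 atypical libraries the median was 0.22 with 34 of 35 members above 0, and without naive LPS replicate 2 alone it was 0.04, with 0 members called in either case. The direction of the small difference between the mice therefore turned with the choice of libraries.

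**Figure D4:**
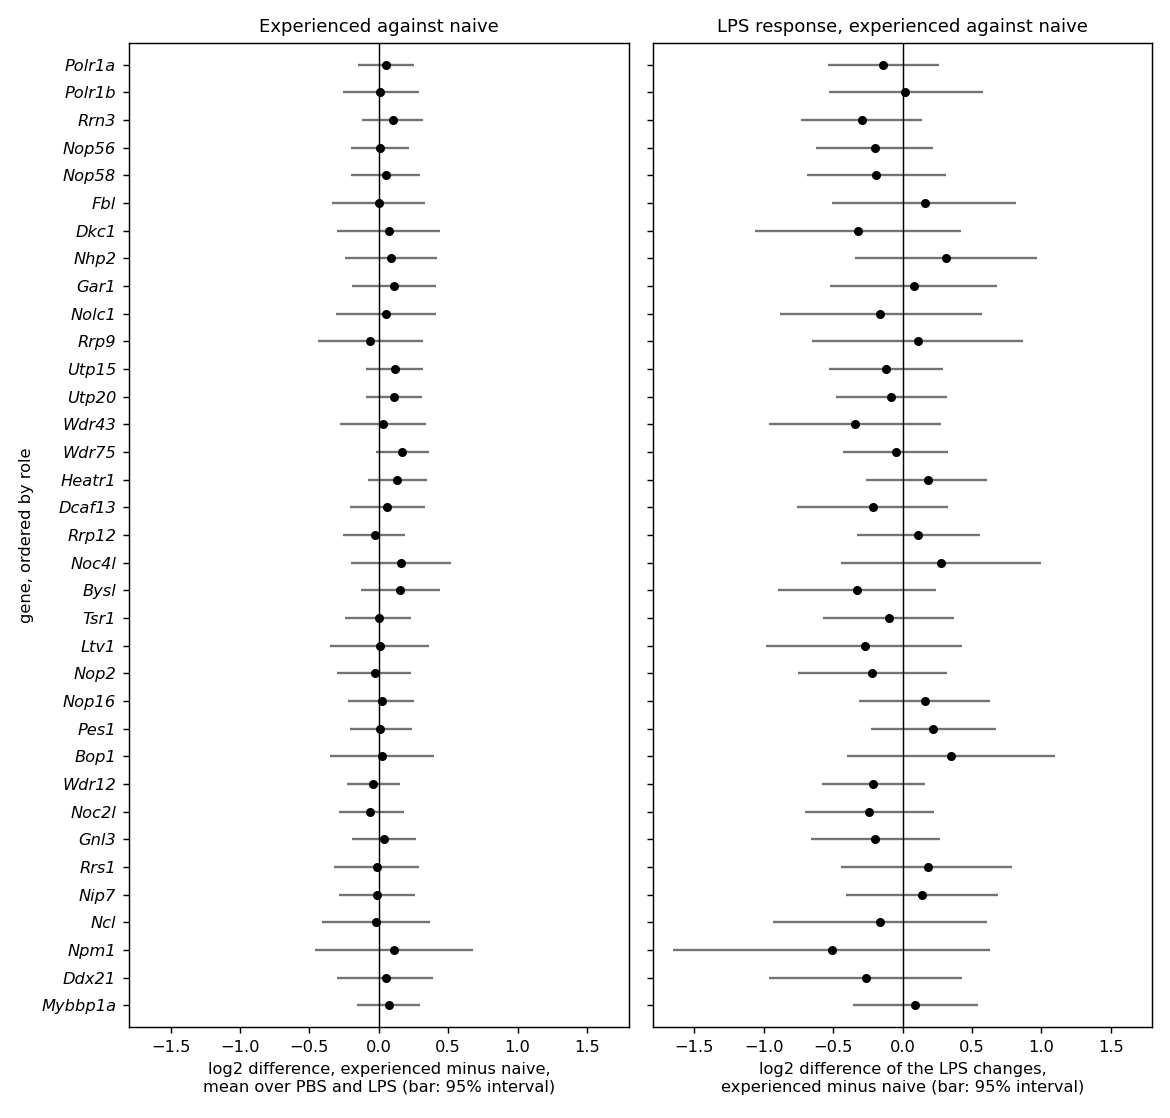
Left, log2 difference of experienced minus naive mice on the mean over PBS and LPS, and right, the LPS change in experienced minus that in naive mice (horizontal axes), for the 35 genes by role (vertical axis). Points are edgeR estimates and bars 95% confidence intervals. Every interval spans 0 in both panels, with the widest for Npm1.

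Within groups the members varied together. Each gene's log2 CPM was set against its group mean in the 16 libraries, and the 595 pairs of members had a median Pearson r of 0.5 (quartiles 0.25 to 0.71), with 529 pairs above 0. Mybbp1a followed the mean of the other members most closely (r = 0.94), with Gnl3 at 0.92 and Nop2 at 0.89. Wdr12 hardly followed it (r = 0.05), nor did Polr1b (0.18), Rrp9 (0.26) and Nip7 (0.27). The points share libraries and their depth and scaling, so these values are descriptions. No such value was computed over other genes, so the joint variation is not shown to be particular to the members. In mean centred log2 level of the members, the naive PBS libraries lay at -0.51 to -0.25, naive LPS at 0.08 to 0.64, experienced PBS at -0.47 to -0.07 and experienced LPS at 0.16 to 0.45. Naive LPS replicate 2 was the highest of its group for 21 of 35 members and experienced PBS replicate 4 for 27. Experienced LPS replicate 4 was the lowest of its group for 23 and the highest for 10, so it did not shift as a whole: Nhp2, Noc4l, Bop1, Rrp9 and Nip7 were low and Npm1, Dkc1 and Wdr43 high in that library.

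The wider assembly machinery was read from lists of genes other than the members. Over all genes tested, 9.81% were called higher in naive and 4.52% in experienced mice. Of 44 other small-subunit genes, 26 were higher in naive and 16 in experienced mice at an edgeR adjusted p under 0.05 (medians 0.54 and 0.51), and of 49 other large-subunit genes, 35 and 16 (medians 0.64 and 0.51). In naive mice examples were the rRNA dimethyltransferase Dimt1 (0.86 ± 0.16) and the processome proteins Wdr3 (0.67 ± 0.12) and Utp4 (0.89 ± 0.17). Large-subunit examples were Nol9, an RNA kinase (0.75 ± 0.14), Ddx24 (0.75 ± 0.14) and Sdad1 (0.74 ± 0.15). All 6 of these passed in naive mice, and all but Dimt1 (0.24 ± 0.16, edgeR adjusted p = 0.353) in experienced mice. The exosome, which trims rRNA ends, had 8 of 13 higher in naive and 3 of 13 in experienced mice (medians 0.63 and 0.44), with Exosc8 at 0.75 ± 0.13, Exosc2 at 0.55 ± 0.11 and Exosc1 at 0.73 ± 0.19 in naive mice.

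Of 11 other snoRNP genes 3 rose in each kind of mouse (medians 0.34 and 0.57), and Nufip1, Ruvbl1 and Naf1, which assemble the particles, had log2 changes of 0.56, 0.63 and 0.66 in naive mice. Of 17 other polymerase I genes 4 rose in naive and 2 in experienced mice (medians 0.40 and 0.37), among them Polr1d with 0.54 and 0.57. Polr1e (0.68) and Taf1d (0.95) passed in naive mice. Among 18 mitochondrial ribosome assembly genes 3 rose in naive mice, Noa1 (0.59), Fastkd2 (0.74) and Mrm3 (0.52), and 0 in experienced mice. These shares were 16.7% and 0.0%, against 9.81% and 4.52% of all genes, and the medians were 0.15 and 0.13. No gene of these lists was called lower.

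The finished ribosome's own proteins were measured with the same test, which called 9.81% of all genes higher in naive and 4.52% in experienced mice. Of 79 cytosolic ribosomal protein genes, 1 was higher in naive mice (Rps24, 0.70 ± 0.23, edgeR adjusted p = 0.0386) and 1 in experienced mice (Rpl38, 0.80 ± 0.22, adjusted p = 0.0249), and 0 were lower. Their median log2 change was 0.02 in naive and 0.23 in experienced mice, with 44 and 72 of 79 above 0. Ribosomal protein genes have many near-identical processed copies among which reads are divided, and their levels are uncertain for that reason. Whether the assembly factors and the ribosomal proteins differed as sets was not tested.

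**Figure D5:**
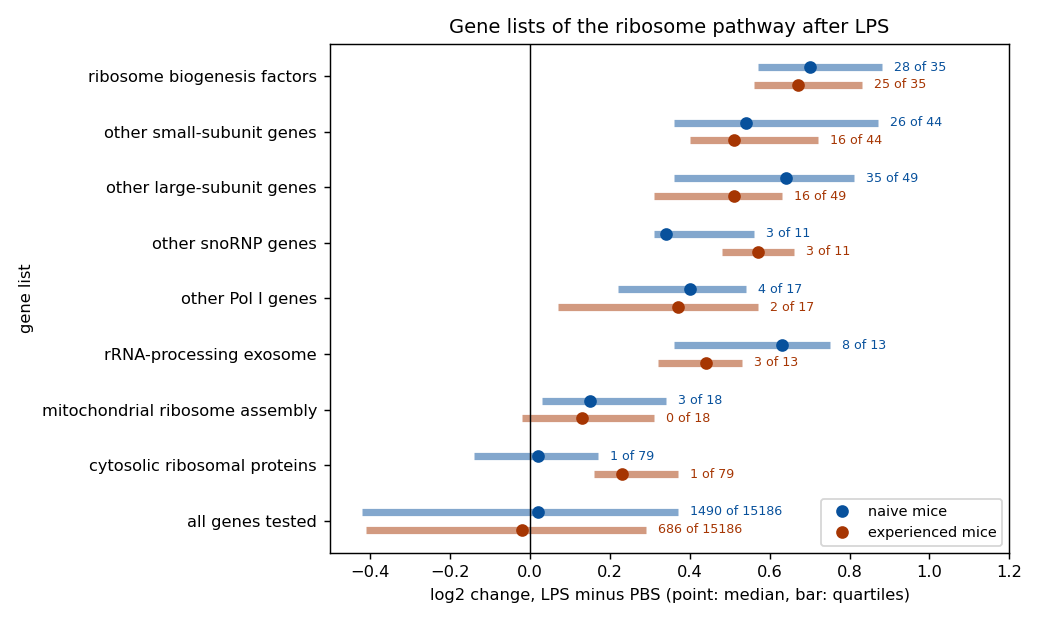
Log2 change after LPS (horizontal axis) of the 35 members, 7 further gene lists and all genes tested (vertical axis), in naive (blue) and experienced mice (brown). Points are medians, bars quartiles, and the text beside each bar counts the genes called higher. Medians of the cytosolic assembly lists lie between 0.34 and 0.70, those of mitochondrial assembly and of ribosomal proteins between 0.02 and 0.23.

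Markers of other cell states moved in the same libraries. In RNA of pooled cells, a change in the mix of cells and a change of RNA per cell cannot be told apart. In naive mice the 12 stem and progenitor markers had 8 called lower and 1 higher (median -0.93), all 9 tested basophil and mast cell markers rose, with summed levels of 44.4 to 78.3 CPM after PBS and 435 to 800 after LPS, and 7 of 11 erythroid markers rose, with sums of 439 to 580 and 959 to 2630 CPM. In experienced mice 6 stem and progenitor markers were called lower and 1 higher, 6 of 9 basophil and mast cell markers rose (39.6 to 219 CPM after PBS, 301 to 552 after LPS), and 0 of 11 erythroid markers were called (326 to 3200 and 704 to 2250 CPM). Megakaryocyte markers had 2 of 6 higher in each kind of mouse. The 12 cell cycle markers summed to 1220 to 1970 CPM in naive PBS, 1540 to 3540 in naive LPS, 1590 to 2400 in experienced PBS and 2220 to 2580 in experienced LPS, with 3 called higher in naive and 0 in experienced mice. Naive LPS replicate 2, the library with the highest mean level of the members, also had the highest cell cycle sum. Its erythroid sum was the lowest of its group (959 CPM). Experienced PBS replicate 4, the highest PBS library for the members, had the highest erythroid sum of its group. Experienced LPS replicate 4 went the other way. It had the lowest member level of its group (0.16) but the highest cell cycle and erythroid sums (2580 and 2250 CPM). B and plasma cell markers summed to 120 to 237 CPM in naive PBS and 24.0 to 51.1 in naive LPS (3 of 7 called lower), and to 71.8 to 439 and 21.2 to 68.9 CPM in experienced mice (2 of 7). Endothelial and stromal markers had 1 of 3 called lower in each kind of mouse and T and NK cell markers 0 of 2. Besides the neutrophil markers given above, markers at 0 in all libraries of a group were Hba-a1 in naive PBS, Lepr in experienced LPS and Gp6 in each group but experienced LPS. The part of these markers in the changes of the assembly genes was not tested.

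Several members share their locus with an expressed gene on the opposite strand, and their levels are uncertain where the counting did not use strand. Besides Bysl these were Gnl3 with Pbrm1 (mean 135 and 206 CPM), Mybbp1a with Spns2 (527 and 266), Nop56 with Idh3b (383 and 114), Heatr1 with Lgals8 (170 and 44.3), Bop1 with Mroh1 (101 and 42.6), Dkc1 with Mpp1 (195 and 39.9), Nhp2 with Rmnd5b (79.0 and 28.6), Rrp9 with Parp3 (46.8 and 21.8), Wdr12 with Carf (142 and 16.9) and Tsr1 with Srr (97.3 and 10.0). Rrp12 (chromosome 19, 41862851 to 41896173, minus strand, GRCm38) and Wdr75 (chromosome 1, 45795166 to 45823619, plus strand), the members called most steadily, overlap no gene in the annotation used.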

How the data were processed

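RNA-seq of sorted HSPCs was analysed as bulk in 16 libraries, 4 per group, with groups and replicate numbers from the sample titles. The labels name a droplet single-cell library kit, while each table holds 1 value per gene and biological replicate, so the kit used is uncertain. Per the submitters' processing notes, trimming used Trim Galore 0.6.7, alignment STAR 2.7.10a and quantification RSEM 1.3.1, on GRCm38. No source used here gives the annotation release, the strand setting or whether the 2 technical replicates listed per biological replicate were merged. Per the file headers, the deposited tables hold RSEM expected counts and TPM per gene. GENCODE's GRCm38 annotation named 45143 of 45706 identifiers.

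Expected counts were rounded, filtered by group (15186 genes with 99.928% of counts kept), scaled by TMM (trimmed mean of M values) and fitted with edgeR 4.0.16 (R 4.3.3) by quasi-likelihood, with 1 mean per group over 16 libraries (common biological coefficient of variation 0.306, 12 residual degrees of freedom). Log2 changes are LPS minus PBS or experienced minus naive, ± SE, with Benjamini-Hochberg adjustment over all genes tested and a threshold of 0.05. CPM here are counts divided by the TMM-scaled library size. The procedure was tested on simulated data. Alternatives were DESeq2 1.42.0, other scalings, no filter, limma 3.58.1 on log2(TPM + 1) and log2(TPM + 0.1), only the 2 groups compared, a replicate block, the mitochondrial share as covariate, each library left out, and the 4 least typical left out.

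The members, gene lists and markers were chosen with earlier results of these data known. Values in every library are given for the 2 members per role class with the lowest adjusted p in naive mice, up to 8 members called in 1 of the 2 LPS contrasts by largest difference, the 3 with the smallest p for the interaction and for the mean of experienced against naive, and the 2 with the smallest change. From other lists up to 3 genes with the lowest adjusted p in naive mice are named, and Rpl38 was named after its value was seen. Protein sequences were not used here.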

Additional observations from a re-analysis of the deposited data

Results flagged for a closer look

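Each member was examined in each group of 4 libraries, 140 groups in all, for a single library whose gap to its nearest neighbour was too large a share of the group's range by Dixon's test at the 95% level. Chance gives about 1 such group in 20, and 13 were found. Of these, 7 were in experienced LPS replicate 4, the library with the fewest counts. There Nop56 had 379 CPM (median of the other 3 libraries 482), Nhp2 54.4 (125), Heatr1 181 (242) and Noc4l 45.8 (104), and higher values were found for Dkc1 at 307 (210), Wdr43 at 315 (230) and Npm1 at 2200 (1150). In experienced PBS replicate 4 Rrp12 had 57.6 CPM (50.8) and Noc4l 65.3 (45.6). In naive LPS replicate 2 Npm1 had 3420 CPM (1030), and in naive LPS replicate 3 Bop1 had 163 (106). In naive PBS replicate 4 Polr1b had 86.1 CPM (102). Wdr75 in experienced LPS replicate 1 had 100 CPM (99.5), a difference that stood out only because the group was so narrow.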

How the results depend on the processing

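All 35 members stayed above 0 for LPS in both kinds of mice under each of the 26 alternatives, and none was called lower. The number called, 28 in naive and 25 in experienced mice, fell most with limma on log2(TPM + 1), to 11 and 3, and on log2(TPM + 0.1), to 10 and 3; the cause was not tested. With DESeq2 it was 31 and 29. Leaving out 1 library gave 22 to 35 and 9 to 31. Calls that held under every alternative numbered 9 of 28 and 3 of 25 (Mybbp1a, Rrp12 and Wdr75), and over single libraries left out 21 and 9. Between experienced and naive mice, and for the interaction, 0 members were called under each alternative. Without the 4 least typical libraries the median difference after LPS was 0.20, and after PBS -0.07 with 5 of 35 above 0 in place of 26. With a replicate block 27 and 17 members were called. Of 24 same-numbered pairs 4 had a correlation of deviations over 0.1 (-0.22 to 0.32), and 4 of 16 libraries matched their own number best. Between experienced PBS and experienced LPS, the same-numbered values were 0.18, 0.22, -0.12 and 0.32 for replicates 1 to 4. Differently numbered pairs of these groups ran from -0.3 to 0.26. Correlations this weak cannot decide whether the numbers pair the libraries. The median SE of 0.35 for the interaction over all genes limits which differences could be seen.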
